A study of Mus musculus with 3 samples.

Results

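The 10 genes described here encode cation channels of the TRP family, channels that open under mechanical force, and proteins of magnesium transport. They were chosen by name, with no measured value in the rule: the transient receptor potential (TRP) channel genes Trpm7, Trpm4, Trpv4 and Trpc1, the mechanosensitive channel genes Piezo1 and Piezo2, the CNNM magnesium transport genes Cnnm2, Cnnm3 and Cnnm4, and Magt1. All 10 were listed in the count table of 20937 genes, and all 10 were among the 18702 genes that passed the filter on low counts.

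Enamel is built by ameloblasts, which first secrete a protein matrix and then remove the matrix while they move calcium, phosphate and other ions into the mineral. Magnesium is a minor ion of enamel and a cofactor of ATP-dependent pumps and kinases in the cells that make it. TRPM7 is a channel fused to a kinase that carries magnesium, zinc and calcium, and mice with an inactive TRPM7 kinase have poorly mineralised incisors. CNNM proteins take part in magnesium efflux, and mutations of human CNNM4 cause Jalili syndrome, which joins amelogenesis imperfecta with a degeneration of the cones and rods of the retina. PIEZO channels open when the membrane is stretched and let calcium in. TRPC1 is a calcium-permeable channel that can be gated together with ORAI1 by STIM1, the sensor of calcium stores that was deleted here.

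RNA sequencing was performed on the whole incisor enamel organ, the epithelium that holds the ameloblasts, of mice aged 4 weeks. The Stim1 cKO library was AmelX-iCre+ Stim1 fl/fl, the Stim1 heterozygous library (Stim1 HT) was AmelX-iCre+ Stim1 fl/wt, and the control library (Stim1 Ctrl) was AmelX-iCre- Stim1 fl/fl. All 3 genotypes thus carried at least 1 floxed allele. The Cre was under the amelogenin promoter, which acts in ameloblasts, and cells in which this promoter is silent keep Stim1. The libraries are called cKO, HT and Ctrl from here on. There was 1 library per genotype, so the spread between mice of 1 genotype was not measured, and whether a library held 1 mouse or a pool is not given in the sources used here.

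Counts summed to between 20216507 and 28265960 per library. Levels are given as CPM (counts relative to the size of the library) scaled by edgeR's TMM method, and the detection limit, set at 3 counts, corresponds to 0.117 to 0.152 CPM. Stim1 itself was at 72.8 CPM in cKO, 129 CPM in HT and 186 CPM in Ctrl. The cKO library stood apart in its cell type markers. Photoreceptor markers, of which 9 of 13 were listed, summed to 1152 CPM in cKO, 13.5 in HT and 12.1 in Ctrl. The matrix genes of secretory ameloblasts summed to 3584 CPM in cKO, 31170 in HT and 23110 in Ctrl. Skeletal muscle markers summed to 4892 CPM in cKO, 18900 in HT and 22200 in Ctrl. The labelled cell type, ameloblasts, was present in all 3 libraries by its markers, but none of the libraries held ameloblasts alone. The methods of the study state that male mice were used, and Y-linked transcripts were present in all 3 libraries (Ddx3y at 991, 1587 and 2058 counts in cKO, HT and Ctrl), yet Xist, which is expressed from the inactive X chromosome of females, had 10897 counts in cKO against 36 and 1. In bulk RNA, fewer cells of a type and less RNA per cell cannot be told apart. No count given below can be repeated without the cKO library, since it is the only one of its genotype.

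Levels of different genes were compared per kilobase of exon, on the gene models of GENCODE M21 (GRCm38). Magt1 was the highest of the 10 in every library, at 17.6 CPM per kb in HT, 18.4 in Ctrl and 26.0 in cKO. Piezo1, at 10.4 and 15.5 CPM per kb in HT and Ctrl, and Trpm7, at 11.8 and 12.8, followed, and their control ranges overlapped. Cnnm4, Cnnm3 and Trpv4 lay between 4.01 and 5.92 CPM per kb in the controls. They had this order in both controls, but each range overlapped the next, and in cKO Trpv4 was above Cnnm3. Trpm4 was lower, at 3.04 and 3.32 CPM per kb. Cnnm2, at 1.65 and 1.85, and Piezo2, at 1.15 and 1.88, overlapped each other. Trpc1 was the lowest in both controls, at 0.605 and 0.613 CPM per kb, and reached 2.37 CPM per kb in cKO, where it was eighth. The ranges here are those of the 2 control libraries and not of replicates.

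**Figure D1:**
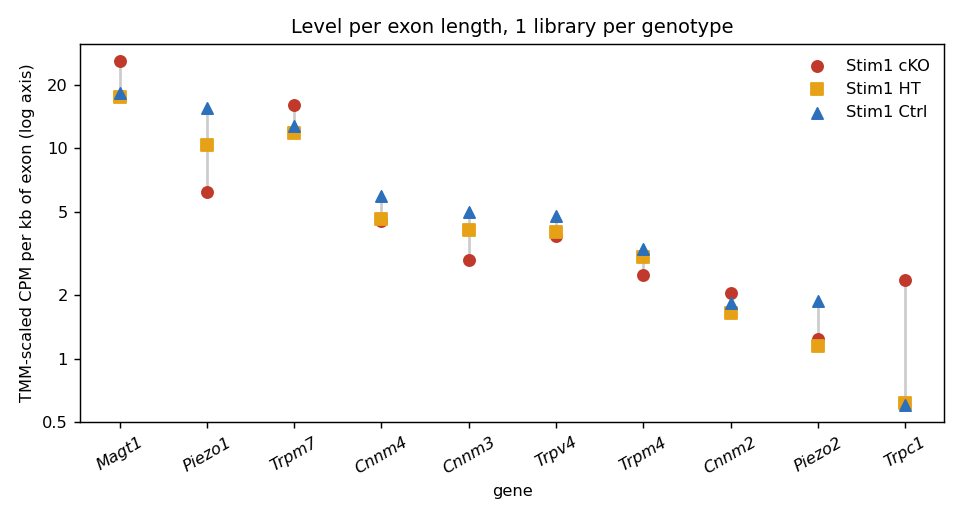
Level of each of the 10 genes in the 3 libraries (TMM-scaled CPM per kb of exon, log axis), ordered by the mean of the 2 controls. Each point is 1 library, red circles for cKO, yellow squares for HT and blue triangles for Ctrl. Trpc1 was at 0.605 and 0.613 in the controls and at 2.37 in cKO, and Piezo1 was at 6.21 in cKO against 10.4 and 15.5.

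Trpc1 had the largest difference of the 10 genes. It lies on the minus strand of chromosome 9 from 95705082 to 95750375, and its counts were 460 in cKO, 97 in HT and 125 in Ctrl. These correspond to 19.0, 4.92 and 4.86 CPM, so the cKO library lay far above a pair of controls that were nearly equal. The log2 ratio of cKO was 1.95 to HT (95% Clopper-Pearson interval 1.63 to 2.28, which covers counting error only) and 1.97 to Ctrl (1.68 to 2.26). That of HT to Ctrl was 0.02 (-0.38 to 0.41). Against the grouped controls, the level was 3.88-fold higher in cKO, with a log2 fold change of 1.96 and adjusted p = 0.0421 by edgeR's quasi-likelihood test, adjusted over all genes tested by the Benjamini-Hochberg method. The thresholds of the study, adjusted p under 0.01 with a change of more than 2-fold, define a called gene here, so Trpc1 was not called by edgeR. DESeq2, which the study used, gave a log2 fold change of 1.93 (SE 0.57) with adjusted p = 0.00683 and called it.

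Markers of photoreceptors, neurons and maturation ameloblasts were higher in cKO alongside Trpc1. TRPC1 is known from many tissues, the brain among them. All 9 neuron markers were listed, and 7 of them were over 2-fold above both controls. The 9 summed to 1682 CPM in cKO, 276 in HT and 210 in Ctrl. All 9 listed photoreceptor markers were higher in the same way, by 90.1-fold in sum over the mean of the controls. Of the 6 maturation ameloblast markers, 4 were above both controls, and the sum was 917 CPM in cKO, 389 in HT and 174 in Ctrl. The part of these cells in the difference of Trpc1 was not tested. The markers of the enamel organ epithelium summed to 2971 CPM in cKO, 1912 in HT and 1803 in Ctrl, a smaller difference, and with the level of each library divided by the geometric mean of these 7 epithelial genes the log2 fold change of Trpc1 was 1.57.

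Piezo1 had the second largest difference, in the other direction. PIEZO1 is best known as the force sensor of blood vessel endothelium and of red blood cells, and it is also found in epithelia and in cells of the skeleton. The gene lies on the minus strand of chromosome 8 from 122481698 to 122551329, and its counts were 1493 in cKO, 2026 in HT and 3967 in Ctrl, or 61.7, 103 and 154 CPM. The 3 libraries were spread in steps, with cKO lowest and Ctrl highest. The log2 ratio of cKO was -0.74 to HT (-0.84 to -0.64) and -1.32 to Ctrl (-1.41 to -1.23), while the controls themselves differed by -0.58 (-0.66 to -0.51). With both controls as 1 group, the level was 2.08-fold lower in cKO. The log2 fold change of -1.06 had adjusted p = 0.12 by edgeR's quasi-likelihood test and 0.0373 by DESeq2, and neither tool called the gene. Of the 9935 exon bases of Piezo1, 2441 overlap those of Ctu2 on the other strand. Whether counting used the strand is not given in the sources used here, so reads there could not be assigned with certainty. Ctu2 had 14.5 CPM in cKO, 20.5 in HT and 14.65 in Ctrl, which does not show how reads of the overlap were assigned. The level of Piezo1 per length of exon carries the same limit.

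Most marker lists of cells other than epithelium and nerve cells had lower sums in cKO alongside Piezo1, and those of endothelium and of red blood cell precursors are given first because PIEZO1 is known there. Of the 9 endothelial markers, 8 were below both controls and 2, Pecam1 and Cdh5, were called by DESeq2. Their sum was 326 CPM in cKO, 650 in HT and 655 in Ctrl. Of the 8 listed of 9 erythroid markers, 7 were below both controls and 5 were called by DESeq2, with a sum of 1055 CPM against 2334 and 1708. All 9 markers of fibroblasts and mesenchyme were below both controls as well, with 35480 CPM in sum against 49480 and 76550. Other lists differed by more. The osteoclast sum was 4.66-fold lower than the mean of the controls, with 7 of 7 markers below both. The skeletal muscle sum was 4.20-fold lower (9 of 10 below both) and the Schwann cell sum 2.33-fold lower (5 of 6). The cartilage sum was 3.00-fold lower, but only 4 of 8 markers were below both controls. Another 2 were above both, and DESeq2 called Sox9 higher. The bone and odontoblast sum differed less, at 2552 CPM in cKO, 2735 in HT and 2917 in Ctrl. The macrophage sum in cKO, 331.6 CPM, lay between the 417.5 of HT and the 299.5 of Ctrl. No listed marker was at 0 in any library, since the table lists only genes with a count in each. The part of these cells in the level of Piezo1 was not tested.

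**Figure D2:**
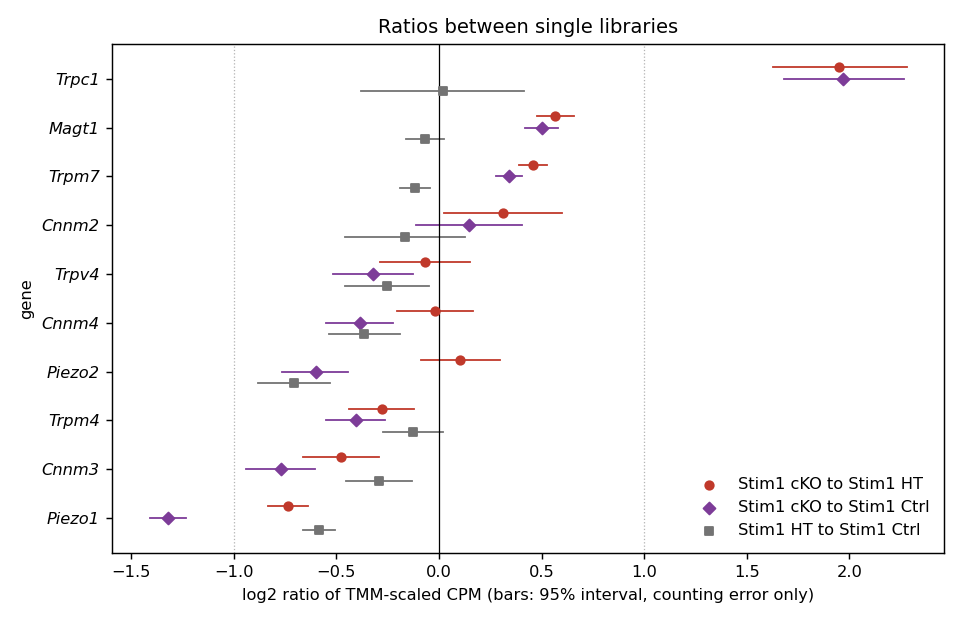
Log2 ratios of TMM-scaled CPM between single libraries for each gene, ordered by the log2 fold change against the grouped controls. Red circles give cKO to HT, purple diamonds cKO to Ctrl and grey squares HT to Ctrl, with bars for the 95% Clopper-Pearson interval of counting error. Dotted lines mark a 2-fold change. For Trpc1 both ratios of cKO are near 1.95 while that of the controls is 0.02, and for Piezo2 the ratio of the controls, -0.71, exceeds in size that of cKO to Ctrl, -0.60.

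The promoters of Trpc1 and Piezo1 are shown because these genes had the largest difference in each direction. The windows are the 250 bases before the RefSeq start of each gene (GRCm38.p6), written 5′ to 3′ on the strand of the gene, chr9:95750349-95750598 for Trpc1 and chr8:122551330-122551579 for Piezo1, both on the minus strand. Capitals mark letters of 4 motifs searched on both strands: the core GGAAA of NFAT, the factor that calcineurin activates after store-operated calcium entry, the half-site TGACG of the cyclic AMP response element, the GC box GGGCGG and the TATA box TATAAA. No matches overlap in these windows.
Trpc1: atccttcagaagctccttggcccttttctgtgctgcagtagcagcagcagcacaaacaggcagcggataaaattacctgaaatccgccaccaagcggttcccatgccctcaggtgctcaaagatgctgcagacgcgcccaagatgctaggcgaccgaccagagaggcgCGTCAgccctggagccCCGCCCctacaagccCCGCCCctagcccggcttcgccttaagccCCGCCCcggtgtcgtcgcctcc
Piezo1: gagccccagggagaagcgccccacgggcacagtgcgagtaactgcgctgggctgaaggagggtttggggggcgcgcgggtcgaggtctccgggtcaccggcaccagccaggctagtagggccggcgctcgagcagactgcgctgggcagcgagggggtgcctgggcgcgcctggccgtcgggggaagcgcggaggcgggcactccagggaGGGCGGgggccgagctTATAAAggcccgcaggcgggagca

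The Trpc1 window held 3 GC boxes and 1 cyclic AMP half-site, all read on the opposite strand, and the Piezo1 window held 1 GC box and a TATA box whose first base is 24 bases before the start. Windows were found for 8 of the 10 genes. A GC box was present in 6 of these 8 (32.7% of all 32851 promoter windows), the cyclic AMP half-site in 3 (Trpc1, Cnnm3 and Cnnm4, 17.8% of all) and the TATA box in Piezo1 alone of the 8 (12.4% of all). The 8 windows were rich in G and C, from 56.4% in Magt1 to 75.6% in Cnnm4, against a median of 52.4% over all windows. The part of this base content in the share with a GC box was not tested. The NFAT core was in 3 of the 8, Trpm7, Cnnm2 and Magt1, and in 55.6% of all windows. Short motifs such as these match often and are a description of the sequence, and the windows of Trpc1 and Piezo1 held no GGAAA on either strand, which says nothing of the factor elsewhere.

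The other TRP channels of the group differed less than Trpc1. Trpm7 lies on chromosome 2 from 126791565 to 126876230 (minus strand) and had the most counts of the 10 genes in cKO and HT, 4433 and 2627, with 3721 in Ctrl. Its level was 183 CPM in cKO, 133 in HT and 145 in Ctrl, above both controls by more than the controls differed from each other. This gave a log2 fold change of 0.40 with adjusted p = 0.354 by edgeR's quasi-likelihood test. Relative to the epithelial genes used for Trpc1, the log2 fold change of Trpm7 was 0.006. TRPM6 is the closest relative of TRPM7 and a magnesium channel of kidney and gut. Per length of exon, Trpm7 exceeded Trpm6 by 33.2-fold in cKO (95% interval 27.0 to 41.4), 56.0-fold in HT (39.6 to 82.1) and 68.6-fold in Ctrl (49.7 to 97.6), so Trpm7 was by far the more abundant of the pair in every library, and the counting interval of cKO overlapped that of HT but lay below that of Ctrl.

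Trpm4 encodes a channel for monovalent cations that opens when cytosolic calcium rises, and lies on chromosome 7 from 45302632 to 45333780 (minus strand). It was at 27.1 CPM in cKO, 32.9 in HT and 36.0 in Ctrl, with a log2 fold change of -0.34 and adjusted p = 0.368 by edgeR's quasi-likelihood test. Trpv4, on chromosome 5 from 114622152 to 114658421 (minus strand), encodes a calcium-permeable channel that responds to cell swelling and warmth. Its level was 15.6 CPM in cKO, 16.35 in HT and 19.5 in Ctrl, so the difference between the controls was larger than that between cKO and HT. The log2 fold change of -0.20 had adjusted p = 0.69 by the same edgeR test.

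Piezo2, which encodes the touch channel of sensory neurons and Merkel cells and is also expressed by odontoblasts, was the only gene of the 10 whose level in cKO lay between the controls. It lies on chromosome 18 from 63010213 to 63387183 (minus strand), and its counts were 515 in cKO, 390 in HT and 831 in Ctrl, or 21.3, 19.8 and 32.3 CPM. The log2 ratio of HT to Ctrl, -0.71 (-0.88 to -0.53), was the widest gap between the controls among the 10 genes. The log2 fold change against the grouped controls was -0.29 with adjusted p = 0.618 by edgeR's quasi-likelihood test. Sensory neuron markers, all 8 of them listed, were uneven between the controls too, with 1 of 8 above both controls in cKO and 4 of 8 below both. They did not share a direction between the controls. Scn10a had 1 (below the detection limit), 8 and 162 counts in cKO, HT and Ctrl, and Calca had 11, 665 and 91. The sum of the 8 was 97.8 CPM in cKO, 78.9 in HT and 72.8 in Ctrl. The part of sensory neurons in the level of Piezo2 was not tested. Per length of exon, Piezo1 exceeded Piezo2 by 5.01-fold in cKO (4.53 to 5.55), 8.97-fold in HT (8.05 to 10.03) and 8.25-fold in Ctrl (7.65 to 8.90). The balance between the PIEZO genes thus differed between cKO and either control by more than counting error, while the intervals of the controls overlapped.

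None of the 3 CNNM genes was called by either tool. Cnnm4, the gene of Jalili syndrome, and Cnnm3 are neighbours on the plus strand of chromosome 1, from 36471620 to 36508764 and from 36511867 to 36528237. Cnnm4 had 529 counts in cKO, 437 in HT and 735 in Ctrl. Its 21.9 CPM in cKO were close to the 22.2 CPM of HT, and Ctrl was higher at 28.6 CPM. A log2 fold change of -0.22 was obtained with adjusted p = 0.641 by edgeR's quasi-likelihood test. With a log2 ratio of -0.02 to HT (-0.21 to 0.16) and of -0.39 to Ctrl (-0.55 to -0.22), Cnnm4 showed no difference that both controls shared.

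Cnnm3, whose protein is also bound by phosphatases of the PRL family, was at 18.8 CPM in cKO, below the 26.2 CPM of HT and the 32.2 CPM of Ctrl. The log2 fold change of -0.63 had adjusted p = 0.195 by edgeR's quasi-likelihood test and 0.327 by DESeq2. An antisense gene model overlaps 269 of its exon bases, and a microRNA model 141 of those of Cnnm4. Cnnm2, a kidney and brain gene whose mutations cause low blood magnesium, lies on chromosome 19 from 46761596 to 46880192 (plus strand) and was at 10.6 CPM in cKO, 8.53 in HT and 9.56 in Ctrl. At a log2 fold change of 0.23, the gene had adjusted p = 0.72 by the edgeR test, and the counting interval of its ratio to Ctrl, -0.11 to 0.40, held 0. Per length of exon, Cnnm4 exceeded Cnnm2 by 2.21-fold in cKO (1.90 to 2.58), 2.78-fold in HT (2.32 to 3.35) and 3.20-fold in Ctrl (2.76 to 3.71), so Cnnm4 was the more abundant in every library.

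Magt1 encodes a subunit of the oligosaccharyltransferase, the complex that adds sugar chains to new proteins, and has also been described as a magnesium transporter. It lies on chromosome X from 105968084 to 106011906 (minus strand) and had 2942 counts in cKO, 1616 in HT and 2211 in Ctrl. Its levels of 122 CPM in cKO, 82.0 in HT and 85.9 in Ctrl placed cKO above 2 controls whose counting intervals could not separate them, with a log2 ratio of HT to Ctrl of -0.07 (-0.16 to 0.03). The log2 fold change of 0.53 had adjusted p = 0.211 by edgeR's quasi-likelihood test and 0.332 by DESeq2. Relative to the epithelial genes used for Trpc1, the log2 fold change of Magt1 was 0.14. Xist, which marks an inactive X chromosome, was at 450 CPM in cKO, 1.83 in HT and 0.0389 in Ctrl. The Ctrl value is 1 count, below the detection limit. What part Xist had in the level of the X-linked Magt1 was not tested. Tusc3 is the paralog of Magt1 in the same complex. Per length of exon, Magt1 was at 1.39 times Tusc3 in cKO (1.30 to 1.47), 0.716 times in HT (0.668 to 0.767) and 1.06 times in Ctrl (0.992 to 1.13), so its share of the pair was highest in cKO, and the controls also differed from each other by more than counting error.

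The 10 genes did not stand out from all genes tested by their counts of differences. None of the 10 was called by edgeR's quasi-likelihood test, in which 14 of 18702 genes, 0.0749%, were called, all of them higher in cKO. At an unadjusted p under 0.05 in that test, 2 of the 10 genes passed, Trpc1 upward and Piezo1 downward, against 31.9% of all genes tested. DESeq2 called 1 of the 10 higher, Trpc1, and none lower, against 6.3% of 17283 genes called higher and 5.26% called lower. The cKO library was above both controls for Trpm7, Trpc1, Cnnm2 and Magt1, 4 of 10 against 43.6% of all genes, and below both for Trpm4, Trpv4, Piezo1, Cnnm3 and Cnnm4, 5 of 10 against 42.1%. The level was over 2-fold above both controls for Trpc1 alone, against 19.1% of all genes, and over 2-fold below both for none of the 10, against 8.23%.

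Except for the single call by DESeq2, these shares were close to those of all genes or below them, and with 10 genes each gene makes up 10% of the group. The distance of cKO from the nearer control exceeded the distance between the controls for 6 of the 10, Trpc1, Magt1, Trpm7, Trpm4, Cnnm3 and Piezo1, and for 59% of all genes. The median log2 fold change of the 10 genes was -0.21 against -0.01 over all genes tested. The summed level of the 10 was 501 CPM in cKO, 449 in HT and 548 in Ctrl, so that cKO lay between the controls.

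**Figure D3:**
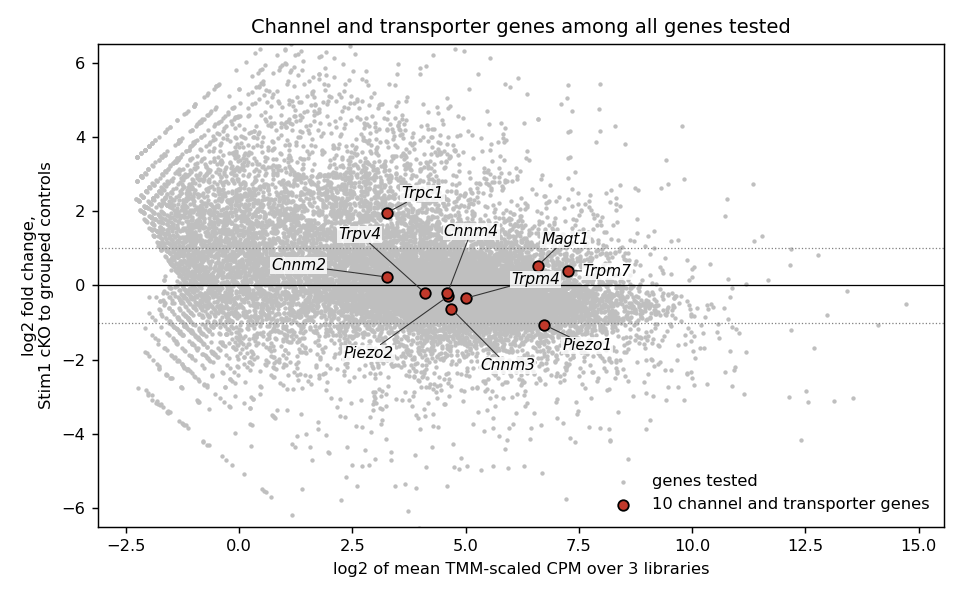
Log2 fold change of cKO to the grouped controls against the log2 of the mean TMM-scaled CPM, for the 18702 genes tested (grey points) and the 10 genes (red points with names). Dotted lines mark a 2-fold change, and 51 genes lie beyond the vertical axis, which ends at 6.5. Trpc1, at 1.96, and Piezo1, at -1.06, are the only 2 of the 10 outside the dotted lines, and many genes of the same level lie farther out.

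The relatives of the 10 genes were examined as 5 lists that together hold 74 genes, of which 70 were listed and 67 tested. Of the 67, none was called by edgeR. At an unadjusted p under 0.05 in the same test, 13 were higher and 9 lower, against 31.9% of all genes in either direction. DESeq2 called 5 higher and 5 lower, against 6.3% and 5.26% of 17283 genes. The cKO library was above both controls for 30 of the 67 and below both for 28, against 43.6% and 42.1% of all genes tested. By these counts the relatives as a whole did not stand out from all genes. The median log2 fold change of all 67 was -0.03. Trpm6, Tusc3 and Pkd2 each stood in 2 of the lists.

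Among the other TRP channels, 20 of 24 could be tested and their median log2 fold change was 0.61. Of the 20, 12 were above both controls and 5 below both, against 43.6% and 42.1% of all genes tested. DESeq2 called Trpm1 higher and Trpm5 lower. Trpm1, which encodes a channel of melanocytes and of the ON bipolar cells of the retina, had 304 counts in cKO, 43 in HT and 45 in Ctrl, with a log2 fold change of 2.67 and adjusted p = 0.0361 by edgeR's quasi-likelihood test and 0.00283 by DESeq2. Of the retinal bipolar cell markers, 4 of 7 were listed, and their sum was 58.95 CPM in cKO, 33.6 in HT and 56.85 in Ctrl. Most of this sum was Prkca, at 50.4 CPM in cKO, between the controls. The other 3 of the 4 were over 2-fold above both controls, and the median log2 fold change of the list was 3.11. Among these, Grm6 had 143 counts in cKO against 2 and 1, which are below the detection limit. The melanocyte markers summed to 22.1 CPM in cKO, between the 16.2 CPM of HT and the 25.1 CPM of Ctrl. The part of either cell type in the level of Trpm1 was not tested. Trpm5, the close relative of Trpm4 that taste and tuft cells express, had 64, 202 and 308 counts in the same order of libraries, with a log2 fold change of -2.07 and adjusted p-values of 0.0583 in edgeR and 0.00676 in DESeq2. Mcoln3, a lysosomal channel, was not called and differed between the controls, with 130 counts in cKO, 61 in HT and 15 in Ctrl.

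Other genes of magnesium transport, 20 tested of 21, had a median log2 fold change of -0.02. Of the 20, 9 were above both controls and 8 below, against 43.6% and 42.1% of all genes tested. The 3 that DESeq2 called went in both directions. Slc41a1, which encodes a sodium-dependent magnesium exporter, had 907 counts in cKO, 2034 in HT and 3554 in Ctrl, or 37.5, 103 and 138 CPM. Its log2 fold change of -1.69 had adjusted p = 0.0416 by edgeR's quasi-likelihood test and 9.34e-05 by DESeq2. It was thus lower in cKO by more than any of the 10 genes. Cldn19, a tight junction protein needed for the paracellular passage of magnesium in the kidney, was also lower, at 10.9 CPM against 28.2 and 54.8, with a log2 fold change of -1.93 and adjusted p = 0.0671 by edgeR's quasi-likelihood test and 0.00243 by DESeq2. Fxyd2, the gamma subunit of the sodium pump, was higher, with 519 counts in cKO, 34 in HT and 63 in Ctrl, a log2 fold change of 3.35, and adjusted p = 0.0225 by edgeR's quasi-likelihood test and 5.25e-06 by DESeq2. Cnnm1, the CNNM gene outside the 10, was at 4.75 CPM against 1.12 in HT and 1.20 in Ctrl, with adjusted p = 0.0773 by edgeR's quasi-likelihood test and 0.178 by DESeq2, and was not called.

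The partners of the CNNM proteins are the PRL phosphatases, which bind CNNM and block magnesium efflux, and ARL15. All 4 of their genes were tested, with a median log2 fold change of -0.46. The 3 phosphatase genes were below both controls, as were 42.1% of all genes tested. DESeq2 called Ptp4a3 lower, at 98.4 CPM in cKO, 217 in HT and 222 in Ctrl, with a log2 fold change of -1.16 and adjusted p-values of 0.0694 in edgeR and 0.00197 in DESeq2. Ptp4a1 and Ptp4a2 had log2 fold changes of -0.39 and -0.52 and were not called.

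Of the other oligosaccharyltransferase subunits, 1 of 11 genes was called by DESeq2 and none by edgeR, and Magt1 itself was not called. Of the 11, none was above both controls and 9 were below both, against 43.6% and 42.1% of all genes tested. The median log2 fold change was -0.76, with a range of -1.05 to -0.16. At an unadjusted p under 0.05 in edgeR's test, 4 were lower, against 31.9% of all genes in either direction. The gene that DESeq2 called lower was Ddost, at 115 CPM in cKO, 237 in HT and 239 in Ctrl, with adjusted p = 0.0845 by edgeR's quasi-likelihood test and 0.00533 by DESeq2. Stt3b, the catalytic subunit of the complex that holds MAGT1 or TUSC3, was at 100.3 CPM in cKO against 163 and 212, and was not called, with adjusted p = 0.131 by edgeR's quasi-likelihood test and 0.0468 by DESeq2.

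Other mechanosensitive channels and modulators of PIEZO, 15 tested of 17, had the highest median of the 5 lists, a log2 fold change of 1.42. This median is the value of 1 gene with 52 counts in cKO, 26 in HT and 8 in Ctrl, which was not called. Of the 15 genes, 10 were above both controls and 3 below both, against 43.6% and 42.1% of all genes tested. DESeq2 called 3, all higher, against 6.3% of 17283 genes. Kcnk2 encodes the stretch-activated potassium channel TREK-1 and was at 90.6 CPM in cKO, 24.4 in HT and 17.8 in Ctrl, with a log2 fold change of 2.10. Asic2, an acid-sensing channel of neurons, was at 20.7 CPM against 1.78 and 1.71, with a log2 fold change of 3.57. Tmem150c, which encodes a modulator of PIEZO currents, was at 21.1 CPM against 5.69 and 3.54, with a log2 fold change of 2.20. For these 3 genes, adjusted p-values lay between 0.0186 and 0.0463 in edgeR's quasi-likelihood test and between 5.61e-07 and 0.00371 in DESeq2. The neuron markers given beside Trpc1 were higher in the same library, and their part in these genes was not tested. Stoml3, which encodes a protein that sensitises PIEZO channels, had 2411 counts in cKO, 526 in HT and 4 in Ctrl. Its controls differed by more than cKO did from HT, and it was not called.

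**Figure D4:**
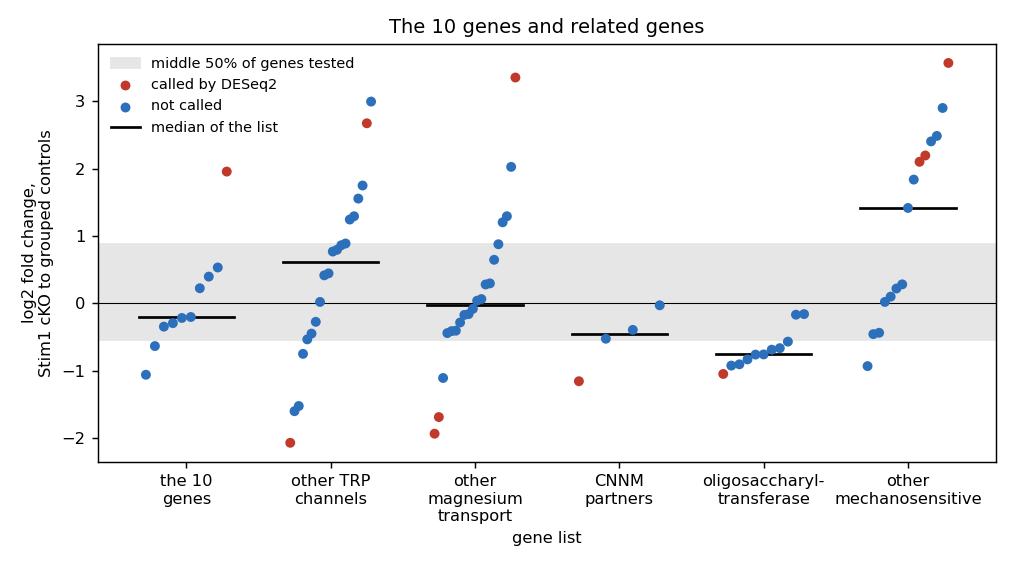
Log2 fold change of cKO to the grouped controls (edgeR) for the 10 genes and for the tested genes of 5 related lists. Each point is a gene, red where DESeq2 called it and blue where it did not. Black lines are the medians, from -0.76 for the oligosaccharyltransferase to 1.42 for the other mechanosensitive genes, and the grey band, from -0.55 to 0.88, holds the middle 50% of all genes tested. The median of the 10 genes, -0.21, lies inside the band.

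**Figure D5:**
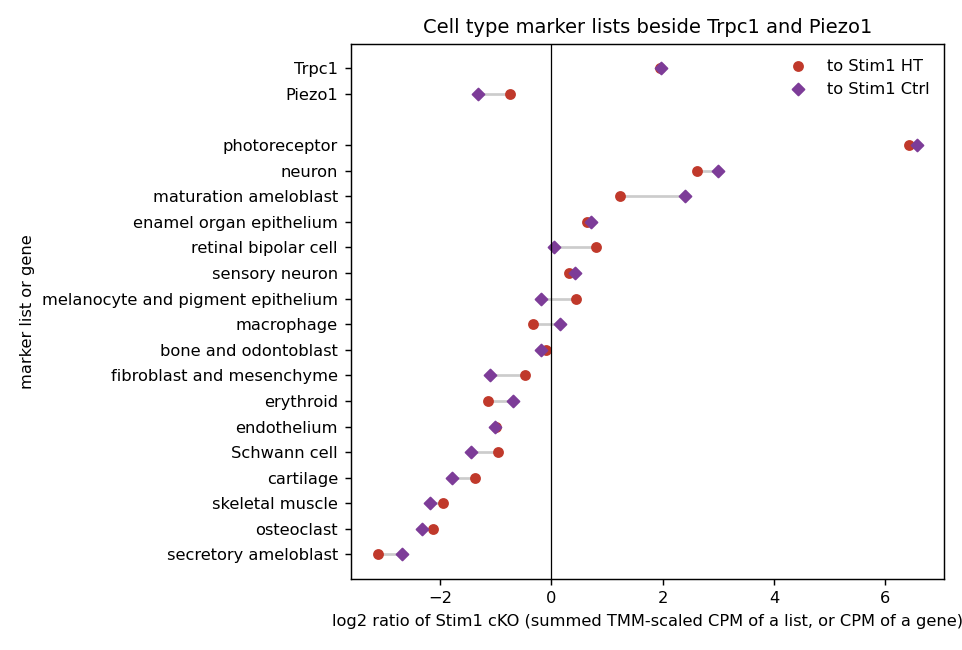
Log2 ratio of cKO to HT (red circles) and to Ctrl (purple diamonds) for the summed TMM-scaled CPM of each cell type marker list and for the level of Trpc1 and Piezo1. Trpc1 lies on the side of the photoreceptor, neuron and maturation ameloblast lists, and Piezo1, at -0.74 and -1.32, on that of the endothelium, erythroid, mesenchyme and muscle lists.

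The enamel organ's own markers differed between the libraries as well. The cKO library was below both controls for all 4 secretory ameloblast markers, 3 of which DESeq2 called lower. The maturation ameloblast markers given beside Trpc1 were higher in sum. Of the 7 general epithelial markers, 6 were above both controls. The 3 libraries thus differed in the balance of ameloblast stages as well as in other tissues, and the part of this balance in the level of any of the 10 genes was not tested.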

How the data were processed

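Polyadenylated RNA of the enamel organ was sequenced in 3 libraries, 1 per genotype. The kit is named differently in the methods of the study (NEBNext Ultra II Directional) and in the labels (SMARTER). The authors checked reads with FastQC, aligned trimmed pairs with STAR and deposited raw counts per gene symbol, without normalization. The build, the annotation and the counting tool are not given in the sources used here. In 23 rows, with 0.148% of the counts, the symbol had become a date. These rows stayed in the tests.

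Both control libraries were taken as 1 group, and Stim1 cKO was compared with it in edgeR 4.0.16 (TMM scaling, filterByExpr, quasi-likelihood test, Benjamini-Hochberg adjustment over 18702 genes) in R 4.3.3. The only residual spread is that between Stim1 HT and Stim1 Ctrl, which is 1 degree of freedom and includes their difference in genotype. The study used DESeq2, and DESeq2 1.42.0 was run as an alternative, beside other scalings, filters and thresholds. The tests were checked on simulated data. Exon lengths and positions came from GENCODE M21 and promoter windows from RefSeq.

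The genes and lists were chosen with earlier results of these data known. All 10 genes were named, and of the other lists those that edgeR or DESeq2 called and the 3 with the largest absolute log2 fold change where the mean over libraries reached 50 counts. Trpm6 and Tusc3, as paralogs, and Ctu2, as an overlapping gene, were named outside this rule after their values were seen. The number of libraries limits the precision, and intervals and detection limits cover counting error only.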

Additional observations from a re-analysis of the deposited data

How the results depend on the processing

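The call of Trpc1 depended on the tool and the threshold. edgeR called none of the 10 genes at an adjusted p under 0.01, while DESeq2 called 1, as did DESeq2 on the genes that pass the filter and edgeR at an adjusted p under 0.05, in each case Trpc1. Over all alternatives its log2 fold change lay between 1.57 and 2.21 and its adjusted p between 0.00652 and 0.043. That of Piezo1 lay between -1.47 and -0.74, with adjusted p-values from 0.0373 to 0.172.

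Of the related genes, edgeR called 0, DESeq2 10, DESeq2 on filtered genes 10, edgeR without a filter 3, and edgeR at an adjusted p under 0.05 6. The count over all genes was 14, and became 1998 with DESeq2, 1987 with DESeq2 on filtered genes, 50 with RLE scaling, 138 with upper-quartile scaling, 6 with library size scaling, 907 without a filter, 6 at a mean of at least 50 counts and 1811 at an adjusted p under 0.05. The cause was not tested.

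Some small differences turned in sign. Scaling by library size alone moved the median log2 fold change of all genes from -0.01 to 0.25, and with it Trpv4 to 0.060 and Cnnm4 to 0.047, both still below that median. Upper-quartile scaling moved the median to 0.12. Piezo2 was at 0.10 without Stim1 Ctrl and at -0.60 without Stim1 HT. With levels relative to the enamel organ epithelium list, chosen after seeing the data along with DESeq2 on filtered genes, every gene moved by about -0.39 and Cnnm2 was at -0.17. Trpm7 and Magt1, higher in cKO in the main result, were then at 0.006 and 0.14, while Cnnm3 was at -1.03 and Piezo1 at -1.47. Without 1 control, no residual degree of freedom remains, so single genes were given as ratios with no test and the counts of calls were not rerun. No paired analysis was possible because each genotype has 1 library and no replicate number pairs them.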
